A study of Homo sapiens with 6 samples.

Results

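Dense runs of RNA polymerase II (Pol II) peaks were examined in LNCaP, a human prostate cancer cell line that responds to androgen, after treatment with the solvent DMSO. A run was a stretch of 10 or more listed DMSO Pol II peaks on a chromosome in which no gap between consecutive peaks exceeded 10 kb. The rule found 260 runs, which held 5125 of the 28798 peaks of the DMSO Pol II list, or 17.8% (interval 17.4 to 18.2). The runs were chosen by the measured positions of these peaks, so the number, size and coverage of the runs are a description and nothing about them was tested. The study had 6 samples, each the only library of its group: Pol I ChIP, Pol II ChIP and input after 1 µM BMH-21 for 6 h, and the same 3 after DMSO. Peak lists of the 4 ChIP libraries were used and the 2 inputs were not analysed here. No listed BMH-21 Pol II peak overlapped a listed DMSO Pol II peak. The runs therefore describe listed peaks and not all Pol II occupancy in DMSO. All groups are the same cell line, for which the labels name no modification, and the Pol II antibody recognises the form phosphorylated at serine 5 of the C-terminal repeat. Because a group is 1 library, differences have no error between replicates and no test, and the intervals are exact 95% intervals that cover counting error over peaks or runs only.

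Pol II transcribes protein-coding genes. Serine 5 of its repeated tail is phosphorylated around initiation, so this form is best known for standing near gene starts, and it can also be found along the bodies of active genes. Pol I transcribes the ribosomal RNA precursor in the nucleolus, and BMH-21 is a DNA intercalator that inhibits it. Regions are given on hg19. The gene table used here is on GRCh38.p14, so its positions were not set against the peaks. Gene names below are background from general knowledge of the human genome map, checked in that table for symbol, chromosome and length only, and no value rests on them.

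The 4 runs with the most peaks lie at the loci of ANKRD11, FBXL17, EFNA5 and GPR158. ANKRD11 encodes an ankyrin repeat protein that binds chromatin regulators, and FBXL17 an F-box subunit of a ubiquitin ligase. EFNA5 encodes a membrane-anchored ligand of Eph receptors and GPR158 a G protein-coupled receptor. The promoters of these 4 genes are shown because a gene start is where the serine 5 form is best known. The sequences are from RefSeq on GRCh38.p14, 250 bases before to 50 after the gene start, 5′ to 3′ on the gene's strand, with each CG in capitals. They lie on the minus strand of chromosomes 16, 5 and 5 and on the plus strand of chromosome 10, and no listed peak was placed on them. The windows were not set against the runs either, so they need not lie inside a run. The runs at FBXL17 (263 kb) and GPR158 (220 kb) are shorter than the genes (523 and 427 kb).
ANKRD11: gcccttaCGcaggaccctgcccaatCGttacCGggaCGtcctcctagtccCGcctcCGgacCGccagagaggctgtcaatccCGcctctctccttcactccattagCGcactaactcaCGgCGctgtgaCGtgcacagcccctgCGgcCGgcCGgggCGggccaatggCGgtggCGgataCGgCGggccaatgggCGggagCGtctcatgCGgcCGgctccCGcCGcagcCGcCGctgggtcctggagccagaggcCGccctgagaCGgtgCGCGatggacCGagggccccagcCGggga
FBXL17: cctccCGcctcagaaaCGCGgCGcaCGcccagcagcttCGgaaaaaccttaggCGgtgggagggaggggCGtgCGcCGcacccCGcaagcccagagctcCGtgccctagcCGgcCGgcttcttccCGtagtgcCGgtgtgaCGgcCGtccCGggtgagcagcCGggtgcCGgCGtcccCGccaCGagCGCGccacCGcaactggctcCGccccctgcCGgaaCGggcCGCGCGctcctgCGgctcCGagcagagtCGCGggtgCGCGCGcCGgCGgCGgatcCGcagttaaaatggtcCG
EFNA5: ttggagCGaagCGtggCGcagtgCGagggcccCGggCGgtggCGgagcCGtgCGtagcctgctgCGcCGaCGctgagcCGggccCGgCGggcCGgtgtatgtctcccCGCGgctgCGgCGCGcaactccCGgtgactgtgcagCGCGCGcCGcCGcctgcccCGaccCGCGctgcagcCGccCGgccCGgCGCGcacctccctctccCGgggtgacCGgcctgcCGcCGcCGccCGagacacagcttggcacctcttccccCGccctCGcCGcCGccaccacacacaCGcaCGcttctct
GPR158: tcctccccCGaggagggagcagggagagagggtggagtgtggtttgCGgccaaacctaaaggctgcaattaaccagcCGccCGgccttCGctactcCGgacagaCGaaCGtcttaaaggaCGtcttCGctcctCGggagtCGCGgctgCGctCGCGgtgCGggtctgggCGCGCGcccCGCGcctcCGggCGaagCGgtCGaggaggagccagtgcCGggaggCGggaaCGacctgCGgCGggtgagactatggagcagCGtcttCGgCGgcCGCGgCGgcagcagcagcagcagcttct
The motif CG, which reads the same on both strands, occurred 34, 45, 47 and 37 times in these windows of 300 bases, against a median of 14 over 35116 promoters of the same length. At least 1 CG was present in 96.0% of all promoters. The motif TATAAA, searched on both strands, was in 0 of the 4 windows and in 11.5% of all promoters. These letters describe the windows only.

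The runs spanned 13.4 Mb, of which 3.38 Mb (25.2%) lay under their own peaks. They held 20.1% of the base pairs under DMSO Pol II peaks. A run had 10 to 116 peaks with a median of 14, and a length of 12.1 to 292 kb with a median of 38.4 kb. Of the 260 runs, 75 had 20 or more peaks, 11 had 50 or more and 22 were longer than 100 kb. Neighbouring peaks within a run stood a median of 1270 bp apart (quartiles 343 and 2990 bp), against 12200 bp over the whole list. The share of a run under listed peaks varied from 8.67% to 77.9%, with a median of 24.5%. By listed peaks, most runs were therefore rows of separate peaks and not solid blocks. The gaps may hold called peaks that are not listed, since 1705 of 6830 peak numbers inside the runs were skipped. Only 5 of the 260 runs were covered over more than 50% of their length.

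**Figure D1:**
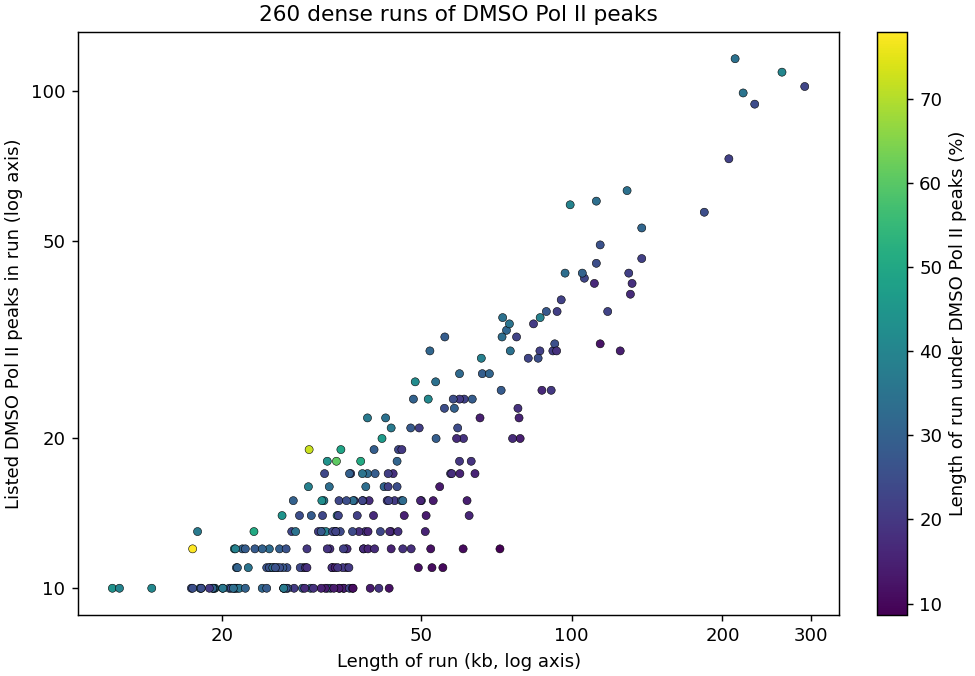
Length (kb, log axis) against the number of listed DMSO Pol II peaks (log axis) of each of the 260 runs, coloured by the share of the run under its peaks. The longest run is 292 kb with 102 peaks, and the brightest point, with 77.9% under peaks, is among the short runs.

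The run with the most peaks, 116, was on chromosome 16 at 89327953 to 89539673, a length of 212 kb at the ANKRD11 locus, whose gene is 223 kb long in the RefSeq table. Its peaks covered 34.6% of it. The next were neighbours on chromosome 5. The run at 107196553 to 107459173 (FBXL17) had 109 peaks over 263 kb with 40.7% covered, and the run at 106705975 to 106998013 (EFNA5) had 102 peaks over 292 kb with 23.2% covered. The EFNA5 gene measures 294 kb in the table and FBXL17 523 kb. A length near that of the gene does not show that the run and the gene have the same ends.

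On chromosome 10, the run at 25557335 to 25777573 (GPR158) had 99 peaks over 220 kb. A further run at 80836852 to 81068924, at the locus of ZMIZ1, known as a co-activator of the androgen receptor, had 94 peaks over 232 kb, and the gene is 248 kb long in the table. On chromosome 7 at 50654691 to 50860697, at the locus of GRB10, an adaptor of the insulin receptor, 73 peaks stood over 206 kb beside a gene length of 203 kb. Chromosome 15 had 63 peaks at 29982308 to 30111715 (TJP1, the tight junction scaffold ZO-1) and 59 at 93468527 to 93567838 (CHD2, a chromatin remodeller). The other 2 runs of the leading 10 were on chromosome 14 at 38180334 to 38292052 with 60 peaks, and on chromosome 3 at 174615896 to 174799676 with 57 peaks, inside the long NAALADL2 locus. Together these 10 runs held 832 peaks, 16.2% of the peaks in runs, over 1.95 Mb.

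**Figure D2:**
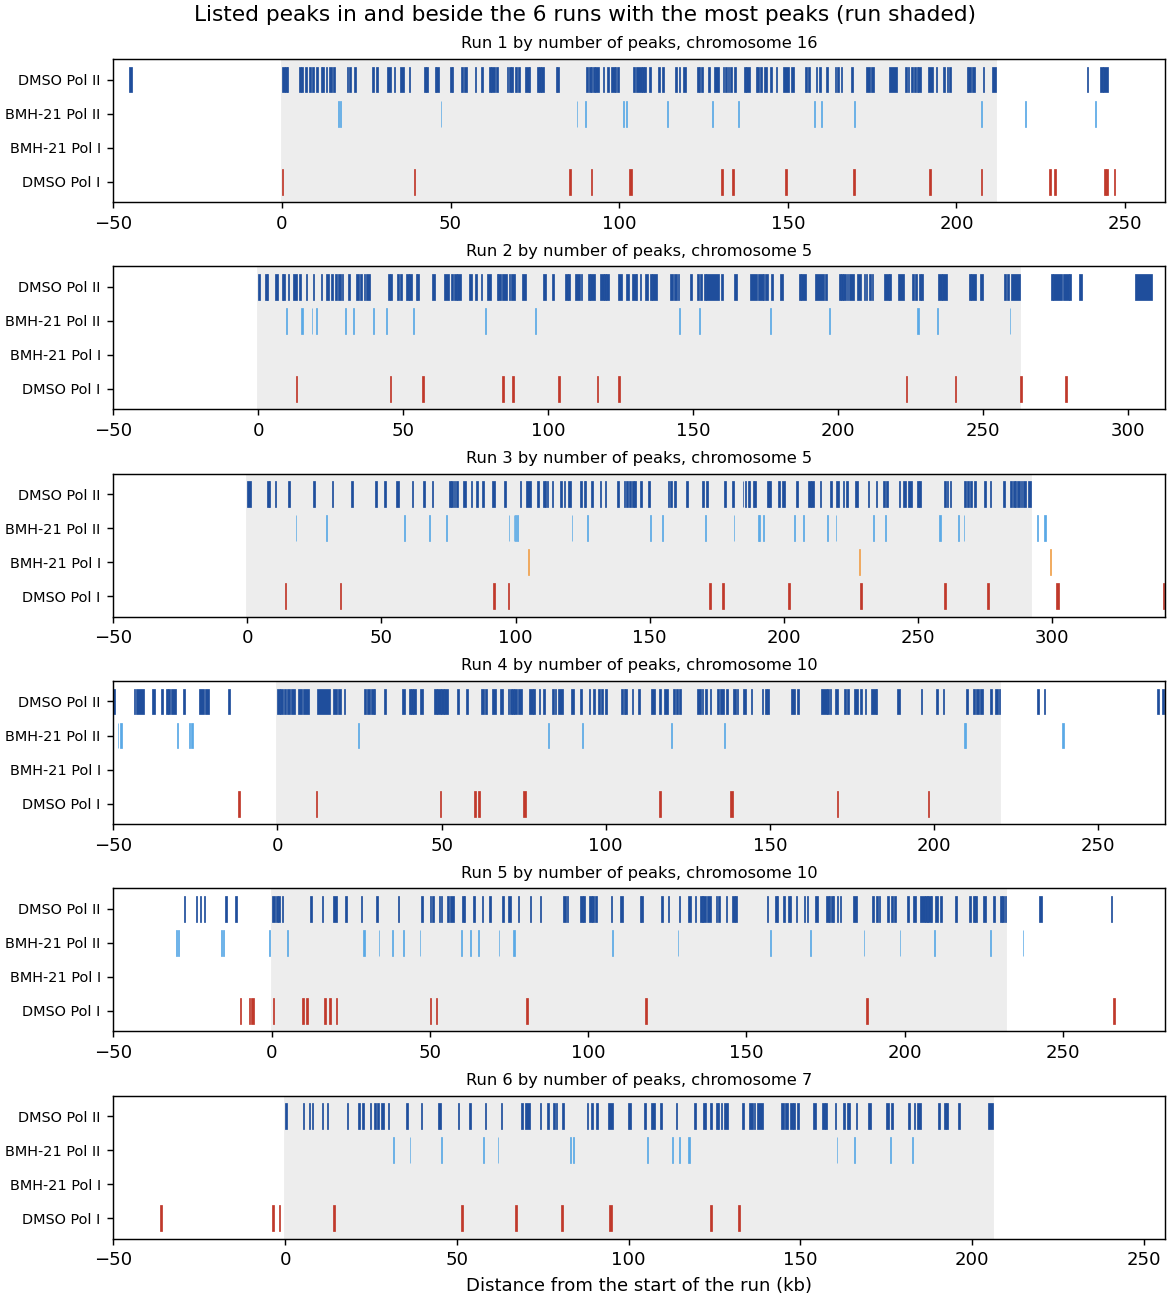
Listed peaks of the 4 libraries in the 6 runs with the most peaks, against distance from the start of the run in kb, with the run shaded and 50 kb shown on each side. The run of 116 peaks has 14 BMH-21 Pol II, 0 BMH-21 Pol I and 11 DMSO Pol I peaks between or on its DMSO Pol II peaks.

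The 5 runs with more than 50% of their length under peaks were each shorter than the median run. The highest covered share, 77.9%, was on chromosome 16 at 70301966 to 70319460, a run of 12 peaks over 17.5 kb at the locus of AARS1, the alanyl-tRNA synthetase. On chromosome 14 at 38075657 to 38105590, 19 peaks covered 72.3% of 29.9 kb. The run on chromosome 9 at 80914608 to 80948524, at the locus of PSAT1, an aminotransferase of serine synthesis, was covered over 60.7% of 33.9 kb by 18 peaks. Its peak at 80933686 to 80936884 had the highest score of any run peak, 1043.33. The score is the authors' value per peak, listed from 50 upward, and is used only within a list. The run on chromosome 12 at 64802786 to 64840659 (XPOT, the exporter of tRNAs) was 50.7% covered, and that on chromosome 1 at 2304661 to 2327824 was 50.4% covered.

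At the other end stood runs of 10 to 12 widely spaced peaks. The lowest covered share was 8.67%, on chromosome 20 at 45885379 to 45957306, at the locus of ZMYND8, a reader of histone marks. Chromosome 1 at 1749484 to 1804807 (GNB1, a G protein beta subunit) was 10.4% covered, chromosome 15 at 99255603 to 99316314 (IGF1R, a growth factor receptor) 10.6%, chromosome 8 at 134245565 to 134298212 (NDRG1, an androgen and stress responsive gene) 10.9%, and chromosome 21 at 44093219 to 44129804 11.0%. These runs had largest gaps of 8288 to 9652 bp, close to the limit of the rule. Over all runs the largest gap inside was 9956 bp, and the smallest gap that ended a stretch was 10002 bp. At the other threshold, 50 runs had exactly 10 peaks, with a median length of 25.6 kb and a median covered share of 26.7%. The 58 stretches of 9 peaks just outside the rule had medians of 22.1 kb and 25.3%.

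Some runs stood close to each other. Of the 260 runs, 52 had another run within 50 kb, in 22 chains of which 6 held 3 or more runs. The chains with the most runs were on chromosome 14 at 38075657 to 38344703, with 4 runs of 19, 26, 60 and 17 peaks, and on chromosome 10 at 62179416 to 62453631, with 4 runs of 29, 19, 15 and 34 peaks. The GPR158 run was the middle of 3 over 401 kb of chromosome 10, with 30 peaks on its left and 12 on its right. At the NAALADL2 locus 3 runs of 57, 16 and 43 peaks lay within 355 kb. Whether a chain is a single region that the gap limit splits into several runs was not tested.

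Runs were found on all 24 chromosomes, from 30 on chromosome 1 and 21 on chromosome 19 to 3 each on chromosomes 21, 22 and X and 1 on chromosome Y. The share of a chromosome's DMSO Pol II peaks that lay in runs was 40.2% on chromosome Y, where it was the 1 run of 41 peaks, and 34.6% on chromosome 10. It was 25.2% on chromosome 5 and 25% on chromosome 16, and lowest on chromosome X (6.61%) and chromosome 22 (7.88%).

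Peaks in runs were somewhat wider than the other peaks of the list, with a median of 547 bp in runs against 489 bp outside, and had a median score of 84.4 in runs against 80.3 outside. The top peak of a run had a median score of 258 and ranged from 83.59 to 1043.33. In 87 runs (33.5%) this peak lay in the outer 10% of the run at either end, where 24.9% of all run peaks lay (interval 23.7 to 26.1). The first share weighs runs equally and the second weighs peaks equally, so runs with many peaks count more in the second. A run starts and ends with a peak by the rule, and an excess of top peaks at the ends was not tested. After the PSAT1 run, the highest top scores were 999.17 on chromosome 16 at 72821009 to 72824364 (ZFHX3, a zinc finger transcription factor), 901.80 on chromosome 2 at 238423669 to 238427207 (MLPH, a transport adaptor), 822.27 on chromosome 17 at 79069365 to 79072581 and 788.81 on chromosome 1 at 2307056 to 2309478.

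Peaks are numbered in each list, with many numbers absent, so a stretch with no listed peak may still have had one called. Inside the runs 1705 of 6830 DMSO Pol II numbers were skipped, which left 75% listed, against 51.9% over the whole list. Runs are stretches of listed peaks, so the rule raises this share. In 14 runs no number was skipped, and the ZMIZ1 run skipped the most, 78 beside its 94 listed peaks.

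The same rule gave 54 runs with 1766 peaks in the BMH-21 Pol II list, 10 runs with 133 peaks in the BMH-21 Pol I list and 11 runs with 138 peaks in the DMSO Pol I list. Dense runs therefore held 17.8% of DMSO Pol II peaks, 15.3% of BMH-21 Pol II peaks, 6.88% of those of BMH-21 Pol I and 0.324% of DMSO Pol I peaks. The covered share was 25.2% in DMSO Pol II runs, 56.3% in BMH-21 Pol II runs, 34.4% in BMH-21 Pol I runs and 18.9% in DMSO Pol I runs. Of the DMSO Pol II runs, 5 touched a BMH-21 Pol II run and 3 a DMSO Pol I run.

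Per peak, DMSO Pol II peaks in runs lay under a DMSO Pol I peak less often than the other DMSO Pol II peaks. The rule chose stretches with many DMSO Pol II peaks, which are the denominator of this share. A lower share per peak is therefore a description, and its cause was not tested. By an overlap of 1 bp or more, 206 of 5125 run peaks (4.02%, interval 3.50 to 4.59) were overlapped, against 5696 of 23673 peaks outside runs (24.1%, interval 23.5 to 24.6). Over the whole DMSO Pol II list the share was 20.5%. Within 1000 bp of a DMSO Pol I peak lay 9.70% of run peaks and 30.2% of the others, against 26.6% of all. The share was lower in runs than outside on each of the 24 chromosomes. On chromosomes X and Y together 0 of 75 run peaks were overlapped (interval 0.00 to 4.80%). These peaks came from 3 runs on X and 1 on Y, and the interval holds the 4.02% of all run peaks. When peaks below the median score of either list were left out, 1.42% of run peaks and 17.0% of the others were overlapped.

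The share declined with the number of peaks in a stretch. It was 37.1% for peaks with no neighbour within 10 kb, 16.7% in stretches of 2 to 4 peaks and 6.26% in stretches of 5 to 9. In runs it was 4.63% at 10 to 19 peaks (interval 3.82 to 5.56), 3.60% at 20 to 49 (interval 2.81 to 4.55) and 3.28% at 50 or more (interval 2.21 to 4.67). The last 3 intervals overlap. Counted by stretch and not by peak, the picture differed. Of 10848 lone peaks 4021 (37.1%) were overlapped. At least 1 overlapped peak was held by 1107 of 3299 stretches of 2 to 4 peaks (33.6%), 214 of 720 stretches of 5 to 9 (29.7%) and 115 of 260 runs (44.2%, interval 38.1 to 50.5). A stretch with more peaks has more chances to hold at least 1, and these shares were not adjusted for that. No run had more than 5 overlapped peaks, and 145 had none.

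**Figure D3:**
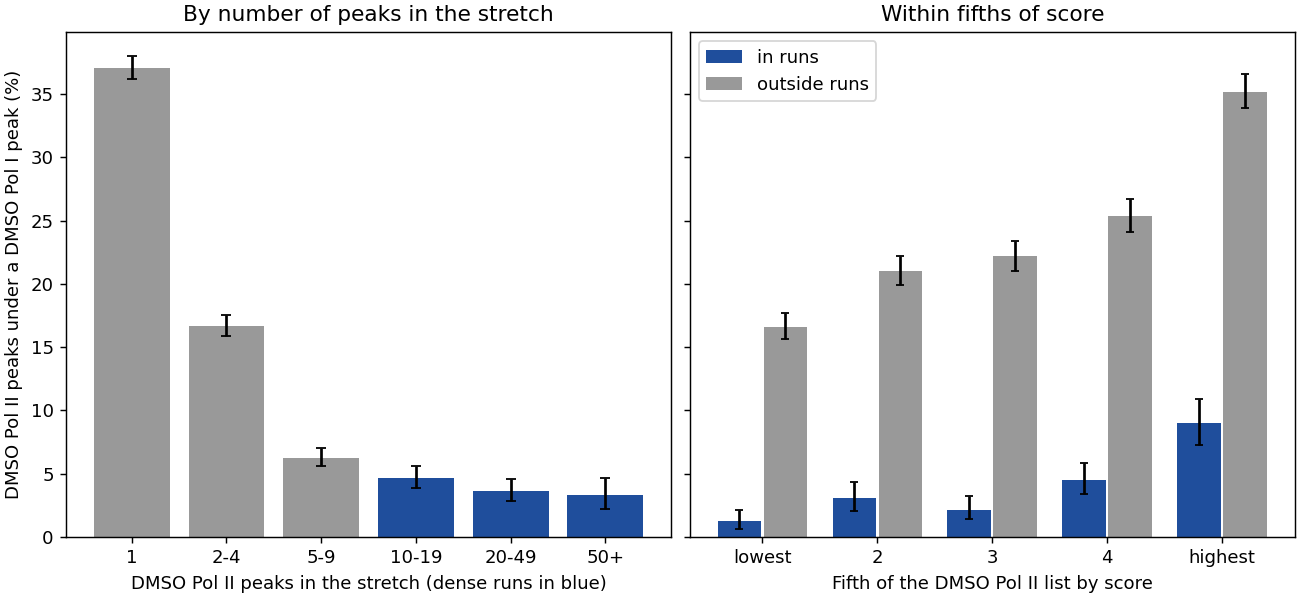
Percentage of DMSO Pol II peaks that lie under a DMSO Pol I peak, with exact 95% intervals over peaks, by the number of peaks in the stretch on the left and within 5 equal bins of DMSO Pol II score on the right. Run peaks (blue) stand below the others (grey) in every bin, from 1.21% against 16.6% in the lowest to 8.99% against 35.2% in the highest.

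The lower share per peak in runs was also present among peaks of like score or like width. These bins leave the choice of runs by their number of peaks in place. When the list was cut into 5 equal bins by score, run peaks were overlapped in 1.21%, 3.05%, 2.15%, 4.51% and 8.99%, and the other peaks in 16.6%, 21.0%, 22.2%, 25.4% and 35.2%, from the lowest bin to the highest. In bins of width the shares in runs were 1.06%, 2.71%, 2.55%, 3.27% and 7.75%, and outside runs 14.9%, 25.0%, 28.3%, 24.0% and 29.0%. The top-scored peak of a run lay under Pol I in 44 of 260 runs (16.9%, interval 12.6 to 22.0). The share was 3.33% of the remaining run peaks (interval 2.84 to 3.87). Within 1000 bp of a DMSO Pol I peak the shares were 20.8% (interval 16.0 to 26.2) and 9.11% (interval 8.31 to 9.95). Top-scored peaks and the others were not matched for width. First and last peaks of a run were overlapped in 6.92% (interval 4.90 to 9.46) and inner peaks in 3.69% (interval 3.17 to 4.28).

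DMSO Pol I peaks themselves were not scarce in the runs. The midpoints of 513 lay inside, or 38.2 per Mb (interval 35.0 to 41.7), against 40.5 per Mb (interval 37.9 to 43.1) in flanks as long as the run on each side and 14.5 per Mb elsewhere. The ratio of runs to flanks was 0.945 (interval 0.847 to 1.05). It was 0.599 when the rule allowed gaps up to 5 kb and 1.55 with gaps up to 20 kb. Elsewhere means the span between the outermost peaks of a chromosome without its longest peak-free stretch. Of the 260 runs, 184 (70.8%) held a DMSO Pol I peak, with a median of 1 and at most 11 in a run. The runs with most were those at ZMIZ1 and ANKRD11, with 11 each, EFNA5 and FBXL17, with 10 each, and GPR158, with 9. Beside these runs, in flanks without other runs, stood 13, 16, 4, 23 and 7 DMSO Pol I peaks. These flanks were 464, 423, 491, 432 and 321 kb long, and the runs 232, 212, 292, 263 and 220 kb. The 76 runs without a Pol I peak had a median length of 33.8 kb against 42.0 kb for the rest, and the longest of them, on chromosome 14 at 38180334 to 38292052, ran over 112 kb.

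Overlap with DMSO Pol II peaks is given for the Pol I peaks as a description, since the rule chose runs for their density of Pol II peaks and so set its direction. Of the 513 inside, 204 (39.8%, interval 35.5 to 44.1) were overlapped by a DMSO Pol II peak, against 10.5% beside runs (interval 8.62 to 12.6) and 13.7% elsewhere, and 14.0% of all DMSO Pol I peaks. Pol II peaks covered 25.2% of the run length and 2.34% of the flanks, and no chance model was built. Pol I peaks inside had a median width of 490 bp and a median score of 99.4, against 509 bp and 112 beside runs and 462 bp and 98.0 elsewhere. In the outer 10% at each end of runs lay 27.1% of the Pol I peaks inside (interval 23.3 to 31.2), and the interval holds the 24.9% of the DMSO Pol II peaks there. Of the BMH-21 Pol II peaks inside, 17.2% lay there (interval 14.8 to 19.8).

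Just outside the runs DMSO Pol I peaks were densest. In bins of 10 kb from the run end, their density was 43.4 per Mb in the last bin inside (interval 37.9 to 49.5), 60.3 in the first bin outside (interval 53.8 to 67.5) and 41.2 in the next (interval 35.6 to 47.4). It was 29.9 per Mb at 30 to 40 kb inside and 28.6 per Mb at 90 to 100 kb outside. By the rule the first bin outside has 0 listed DMSO Pol II peaks. Skipped DMSO Pol II numbers lay between the run and the next listed peak at 404 of 520 run ends (77.7%, interval 73.9 to 81.2), against 62.7% of all gaps over 10 kb in the list, and their positions are not given. BMH-21 Pol I peaks numbered 11 in the last bin inside (2.13 per Mb, interval 1.06 to 3.81) and 17 in the first bin outside (3.35 per Mb, interval 1.95 to 5.37).

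**Figure D4:**
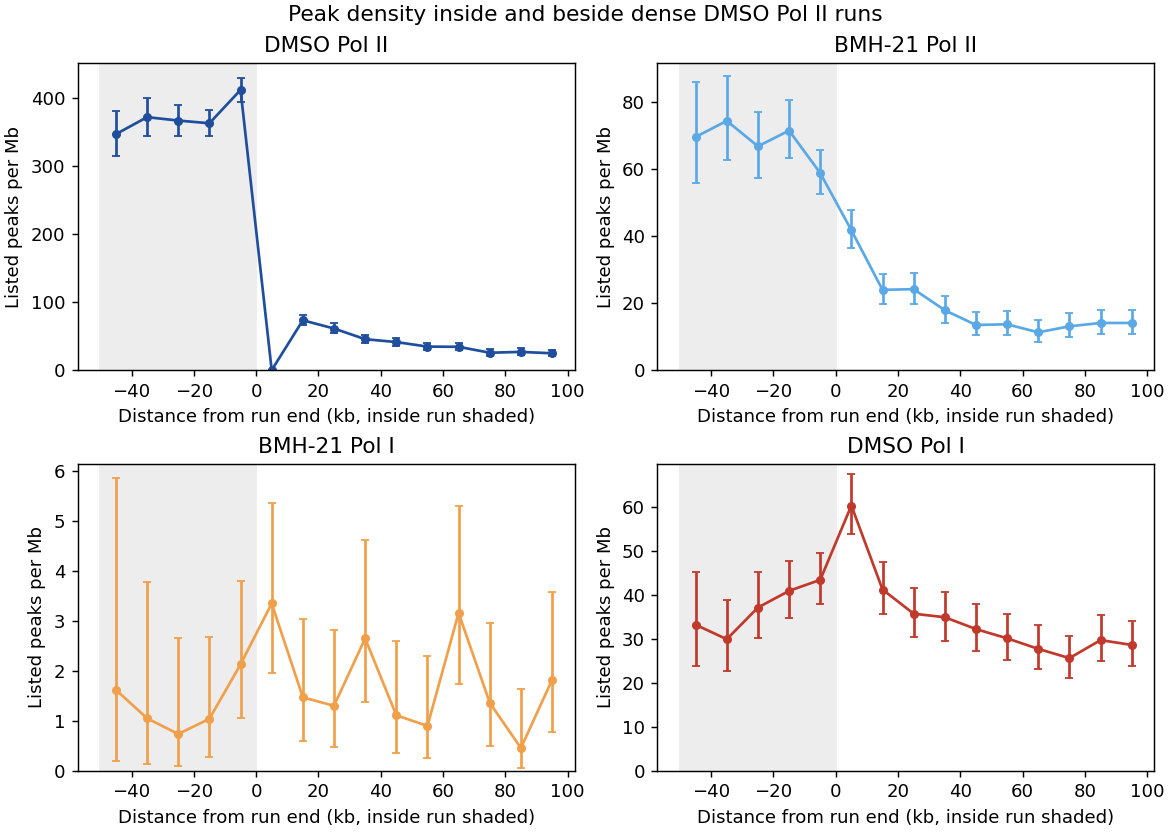
Listed peaks per Mb of each library in bins of 10 kb against the distance from the run end in kb (inside shaded), with exact Poisson 95% intervals. DMSO Pol II drops to 0 in the first bin outside by the rule, BMH-21 Pol II has 58.9 per Mb in the last bin inside and 41.8 in the first outside, and DMSO Pol I has its highest value, 60.3 per Mb, just outside.

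BMH-21 Pol II peaks were listed in most of the runs, and more densely there than beside them. In 220 of 260 runs (84.6%, interval 79.6 to 88.8) lay the midpoint of at least 1 BMH-21 Pol II peak, with a median of 2 and at most 27 in a run. The 918 inside gave 68.4 per Mb (interval 64.0 to 73.0), against 26.2 per Mb beside runs (interval 24.2 to 28.4) and 3.53 per Mb elsewhere, a ratio of runs to flanks of 2.61 (interval 2.35 to 2.89). Of the DMSO Pol II peaks, 15.2% in runs (interval 14.2 to 16.2) and 7.35% outside runs (interval 7.02 to 7.69) had a BMH-21 Pol II peak within 1000 bp, against 8.74% of all. The Pol II lists of the 2 treatments shared no position. DMSO Pol II peaks overlapped 0 of the 918 BMH-21 Pol II peaks inside runs, 0 of 611 beside and 0 of 10011 elsewhere. How listed peaks were selected is not given, so these densities do not compare all Pol II occupancy of the 2 treatments. The BMH-21 Pol II peaks could lie only in the 10.0 Mb of the runs that DMSO Pol II peaks left free. Per Mb of free length the values were 91.4 inside and 26.9 beside. The ratio to flanks was 1.60 with gaps up to 5 kb and 4.47 with flanks of 200 kb. From the deep interior to the end the density kept between 66.9 and 74.5 per Mb, then was 58.9 in the last 10 kb inside, 41.8 in the first 10 kb outside and 24.0 in the next.

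These BMH-21 Pol II peaks were narrow. Their median width was 265 bp and their median score 59.7 inside runs, against 266 bp and 60.1 beside and 269 bp and 60.6 elsewhere. They covered 2.01% of the run length. The widest inside was 826 bp and the highest score 170.23. Beside runs a peak of 32498 bp was listed and elsewhere one of 133089 bp. Such widths could not occur inside runs. Gaps there were at most 9956 bp, and no BMH-21 Pol II peak overlapped a DMSO Pol II peak. The maxima also come from unlike numbers of peaks, 918 inside, 611 beside and 10011 elsewhere. In runs with 2 or more BMH-21 Pol II peaks, 860 were listed and 1107 numbers between them were skipped, which left 43.7% listed. This share was higher than over the whole BMH-21 Pol II list, whose numbers ran to 50244. Counting only between listed peaks of a run raises the share, so skipping was not shown to be particular to runs.

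The runs with most BMH-21 Pol II peaks were the EFNA5 run and the run on chromosome Y at 14822901 to 14933580 (USP9Y, a deubiquitinase), with 27 each. Next came chromosome 2 at 181417613 to 181549798 and at 189350613 to 189429513, with 22 each, and the ZMIZ1 run with 19. Listed DMSO Pol II peaks in these runs numbered 102, 41, 41, 20 and 94. The chromosome Y run, both chromosome 2 runs, a run of 10 peaks on chromosome 2 at 193013022 to 193056230 with 17 BMH-21 Pol II peaks, and the NDRG1 run with 14 were the 5 that touched a run of the BMH-21 Pol II list. The FBXL17 run had 18 BMH-21 Pol II peaks inside its 263 kb and 69 in 432 kb of flanks. The EFNA5 run had 27 inside and 2 in 491 kb of flanks, and the GRB10 run 15 inside and 0 in 412 kb.

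**Figure D5:**
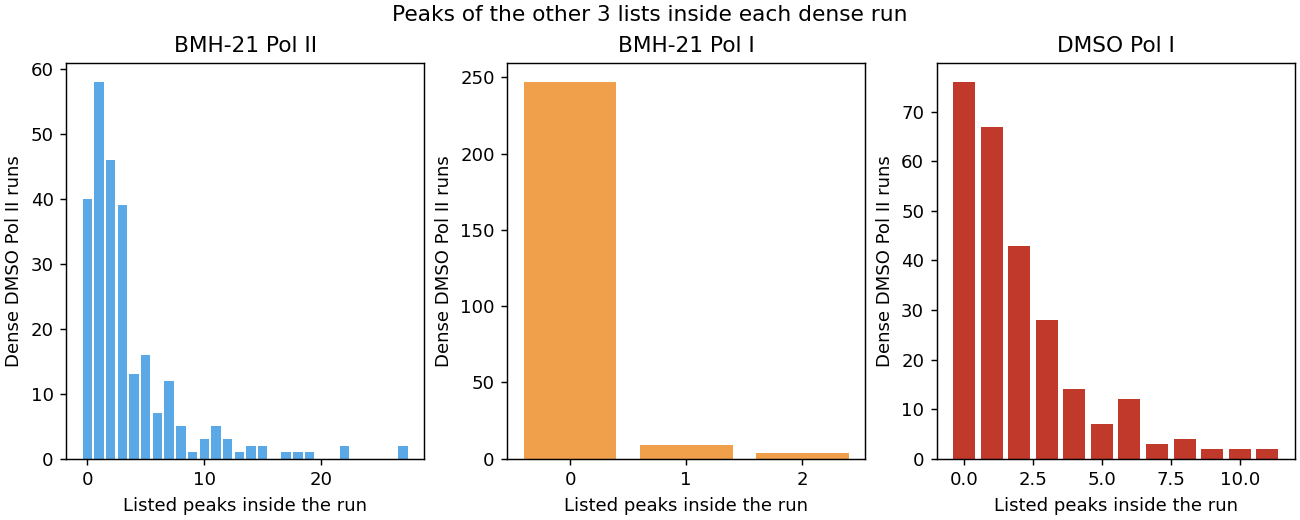
Number of runs (vertical axis, starting at 0) against the number of listed peaks of each other library inside the run. BMH-21 Pol II peaks were in 220 runs, BMH-21 Pol I peaks in 13 and DMSO Pol I peaks in 184 of the 260.

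The BMH-21 Pol I list had 1932 peaks, 12.3% of its peak numbers, which ran to 15755. Listed BMH-21 Pol I peaks were also few in the runs. Only 17 lay inside, in 13 runs (5.00%, interval 2.69 to 8.40), or 1.27 per Mb (interval 0.738 to 2.03), against 1.89 per Mb beside (interval 1.37 to 2.54) and 0.660 elsewhere. The ratio of runs to flanks, 0.670, had an interval of 0.359 to 1.20, so a difference was not detectable at this number of peaks. It was 0.334 for runs of at least 20 peaks and 1.15 with gaps up to 20 kb. They overlapped 8 run peaks (0.156%, interval 0.0674 to 0.307) and 61 peaks outside runs (0.258%, interval 0.197 to 0.331), against 0.240% of all. No run held more than 2. The runs with 2 were the EFNA5 run, chromosome 13 at 50621792 to 50660972, chromosome 5 at 179121750 to 179155707 (CANX, the chaperone calnexin) and chromosome 16 at 4559955 to 4589208.

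Peaks of all 3 other lists were in 11 runs, and 10 runs had none of them. Both the AARS1 run and the PSAT1 run were among the 10, and so 2 of the 3 runs with the highest covered share had no other listed peak inside. The third, on chromosome 14 at 38075657 to 38105590, had 1 DMSO Pol I peak. The AARS1 and PSAT1 runs were short, 17.5 and 33.9 kb. Of all 260 runs, 76 had no DMSO Pol I peak, 247 no BMH-21 Pol I peak and 40 no BMH-21 Pol II peak. A link between covered share and the other lists was not tested. A BMH-21 Pol II peak could lie only on the part of a run that DMSO Pol II peaks left free. Beside the AARS1 run, in 35.0 kb, stood 4 DMSO Pol I peaks, and beside the PSAT1 run, in 67.8 kb, 2.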

How the data were processed

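Chromatin immunoprecipitation libraries of LNCaP cells were analysed from 4 peak lists deposited by the authors, 1 per library, with chromosome, start, end, a numbered peak name and a score for each peak. The score column is headed as a p-value, per the file headers, but its values from 50 upward have no stated scale, so the deposited score ranks or describes peaks within a list only. CASAVA 1.8.2, Bowtie2 2.2.1, deepTools 3.5.4 and hg19 are named in the submitters' processing notes. Peak names begin with MACS, and nothing in the sources used here gives the caller's version and settings, the use of inputs or the selection of listed peaks. Read depth is unknown.

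Runs, flanks, overlaps (1 bp or more) and midpoint counts were computed from zero-based starts and printed with the first base as 1. Flanks were as long as the run on each side, without other runs. Shares have exact Clopper-Pearson and densities exact Poisson 95% intervals, and ratios of densities the interval of the conditional binomial share. Runs were named for most peaks (10 runs) and, with 5 each, for length, highest and lowest covered share, top score and peaks of each other list, and other runs and all chains were chosen after their values were seen. The runs and this rule were chosen with earlier results of these data known. Counting was tested on simulated lists. Groups came from sample titles. Python 3.11.15, NumPy 2.4.6, pandas 2.3.3, SciPy 1.17.1 and matplotlib 3.10.9 were used.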

Additional observations from a re-analysis of the deposited data

How the results depend on the processing

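For 7 results, 57 alternatives were run, of which 32 gave a count within 1.5 times, or a value within the interval, of the reported one, and 25 did not; 7 were chosen after seeing the data. The number of runs, 260, became 397 with at least 8 peaks, 75 with at least 20 and 74 at scores at or above the median. The share of DMSO Pol II peaks in runs, 17.8%, became 9.81% and 26.5% with gaps up to 5 and 20 kb, 21.8% and 9.63% with at least 8 and 20 peaks, and 8.81% at the stricter score, all by construction of the rule. The ratio of DMSO Pol I density in runs to flanks, 0.945, became 1.28 with flanks of 200 kb, 0.599 and 1.55 with gaps up to 5 and 20 kb and 1.23 over bases free of DMSO Pol II peaks, so it has no stable side of 1. The BMH-21 Pol I ratio, 0.670, became 0.334 with at least 20 peaks and 1.15 with gaps up to 20 kb. Of the alternatives for the 3 ratios, 4 crossed 1, for DMSO Pol I and BMH-21 Pol I, whose reported intervals include 1. The BMH-21 Pol II ratio, 2.61, became 4.47 with flanks of 200 kb, 1.60 and 3.67 with gaps up to 5 and 20 kb, 3.40 over free bases and 3.03 without peaks in BMH-21 Pol II runs, and was above 1 under each alternative. The share of run peaks under DMSO Pol I, 4.02%, became 9.70% within 1000 bp, 1.42% at the stricter scores and 3.08% and 5.51% with gaps up to 5 and 20 kb, and stayed below the share outside runs under each, by 3.12 to 12.0 times. The share of runs with a BMH-21 Pol II peak, 84.6%, became 62.7% at the stricter score, 96.0% with at least 20 peaks and 73.6% with gaps up to 5 kb. For shifts that do not follow from the rule, the cause was not tested. No paired analysis was possible because each group has 1 library, and for the same reason no replicate could be left out. The number of listed peaks limits the BMH-21 Pol I values most, with 17 peaks inside runs.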
